A study of Mus musculus with 10 samples.

Results

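This account follows 10 genes through the livers of starved and fed mice: Fos, Fosb and Fosl2 of the Fos family, Jun, Junb and Jund of the Jun family, and the immediate early genes Egr1, Klf6, Ier2 and Ier3. They were chosen by name, and all 10 have a row among the 23420 genes of the count files. The livers came from male C57BL/6 mice aged 4 months, and each of the 10 RNA-seq libraries was made from total RNA of 1 liver. Starved mice (5 libraries, labelled ST) had water but no food for 48 hours, and fed mice (5 libraries, labelled AL) had standard chow over the same time. Mice were wild type as far as the labels say, and no other agent is named for either group. Libraries are called by the replicate number in their titles, which names a mouse within its group.

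Immediate early genes are transcribed within minutes of a signal, without new protein synthesis, and their messages decay quickly. AP-1 is a dimer of a Jun protein with a Fos protein, or of Jun proteins with each other, held together by a leucine zipper and bound to DNA through a basic region. In liver these genes are known for their response to growth factors, cytokines, injury and partial hepatectomy. Because their messages turn over quickly, a single sampling time shows them as they stood at that moment.

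Reads assigned to genes came to 18.2 to 28.1 M per starved library and 23.0 to 29.9 M per fed library. Levels below are CPM, in which each count is divided by its library's size after edgeR's TMM scaling (a trimmed mean of log ratios between libraries), and a gene is called, and said to have risen or fallen, at an adjusted p under 0.05 in edgeR's quasi-likelihood test over all 12796 genes with enough reads. As a check on the tissue label, 7 hepatocyte markers summed to 111258 to 170473 CPM in starved and 92322 to 138328 CPM in fed libraries. Libraries 2 and 4 of the starved group differed from the rest of that group, as described below, so results that rest on them are given with and without them. They were the 2 highest starved libraries for 7 of the 9 tested members. Leaving them out therefore lowers these members' fold changes by itself.

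Most of the 10 genes are short and have few introns. Their median span was 3810 bp, against 24141 bp over 12043 tested genes with a single match in GENCODE M21 (build GRCm38, the same as mm10), and all 10 spans lay below that median. Jun (chromosome 4, 95049034 to 95052222), Junb, Jund and Ier2 have 1 exon in their longest transcript. Fosl2 (chromosome 5, 32135801 to 32157842) has the longest span of the set. Jun, Junb and Jund each overlap a gene on the opposite strand, Junos, Prdx2 and Gm11175 in that order, and since the strand setting of the counting is not given in the sources used here, reads of the overlapping parts cannot be told apart.

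The sequences before the start of 3 of these genes are shown because Jun and Klf6, which are both among the genes called below, carry the same 8 letters there, and Fos gives its name to the family of AP-1 subunits. Each is the 250 bases before the RefSeq start (build GRCm38.p6), 5′ to 3′ on the gene's strand, with the letters that matched a searched motif in capitals.
Jun (chr4:95052223-95052472, minus strand): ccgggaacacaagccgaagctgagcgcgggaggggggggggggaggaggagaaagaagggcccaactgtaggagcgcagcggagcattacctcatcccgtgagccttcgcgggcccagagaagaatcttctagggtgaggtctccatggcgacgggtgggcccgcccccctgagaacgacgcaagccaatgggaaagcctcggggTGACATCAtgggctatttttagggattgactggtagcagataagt
Klf6 (chr13:5861239-5861488, plus strand): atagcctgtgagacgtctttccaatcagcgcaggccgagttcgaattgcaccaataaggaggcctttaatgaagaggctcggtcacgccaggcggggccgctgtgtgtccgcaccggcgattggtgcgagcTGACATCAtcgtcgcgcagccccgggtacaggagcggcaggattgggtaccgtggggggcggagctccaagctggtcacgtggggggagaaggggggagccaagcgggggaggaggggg
Fos (chr12:85473640-85473889, plus strand): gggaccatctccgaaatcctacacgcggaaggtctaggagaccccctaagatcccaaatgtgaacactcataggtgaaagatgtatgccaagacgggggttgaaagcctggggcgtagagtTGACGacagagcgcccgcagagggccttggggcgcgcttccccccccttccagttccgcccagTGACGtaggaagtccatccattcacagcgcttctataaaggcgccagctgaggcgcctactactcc
Jun and Klf6 both hold TGACATCA, at positions -45 to -38 of Jun and -119 to -112 of Klf6 counted back from the start, and Fos holds TGACG at -66 to -62 and at -129 to -125. The site in Jun is known as the one through which AP-1 acts on its own gene, and the site of Fos nearest the start is known as a binding site of CREB. For Klf6 the last 7 bases shown lie within the gene by GENCODE's start.

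Motifs were searched on both strands in the 8 members that the RefSeq promoter table holds, which leaves out Egr1 and Ier2. TGACNTCA was found in 2 of 8 members and in 7.59% of 27025 promoters of the same length. TGACG, which lies within TGACNTCA where N is G, was found in 3 of 8 (Fos, Fosb and Junb) and in 17.9% of all promoters. GCGNGGGCG, the motif of EGR proteins, was found in 2 of 8 (Fosl2 and Fosb) and in 4.65%. TGANTCA, the usual AP-1 element, was found in 0 of 8 and in 6.87%, and the CArG box, the element of serum response factor, in 0 of 8 and in 1.4%. These are matches of letters in one window. Sites further upstream, and any in Egr1 or Ier2, were not searched, so a count of 0 does not show that these genes lack an element. RefSeq and GENCODE put the starts of Fosl2 and Jund 671 and 1210 bases apart.

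Of the 10 genes, 3 rose in starved liver and 0 fell: Jun, Fosl2 and Klf6. Jun averaged 25.1 ± 29.8 CPM in starved and 5.73 ± 0.651 CPM in fed liver (SD, n = 5 each), Fosl2 15.5 ± 15.0 and 5.50 ± 0.698 CPM, and Klf6 39.2 ± 31.9 and 17.6 ± 2.57 CPM. Fos, Junb, Jund, Egr1, Ier2 and Ier3 did not pass the test, and Fosb had too few reads to be tested. Of all genes tested, 18.6% were higher, 20% were lower and 38.6% were called in either direction, and the 3 of 9 members called in either direction lie near the last of these shares. The estimated log2 fold change was positive for 9 of 9 tested members and for 50.3% of all tested genes, whose median was 0.0035. At an unadjusted p under 0.05, 6 members were higher and 0 lower, a threshold at which no share over all genes was taken. DESeq2's Wald test called 5 higher and 0 lower and limma-voom 0 in either direction (2 higher at an unadjusted p under 0.05). With single libraries left out, Jun alone was called without starved library 2 or 4 or fed library 1, 2, 4 or 5, and 6 members were called without starved library 1 (Fosl2, Ier2, Jun, Junb, Jund and Klf6) or 3 (Fos, Fosl2, Ier2, Jun, Jund and Klf6). Egr1 and Jun were called without fed library 3, and Fosl2, Jun, Jund and Klf6 without starved library 5. Over all genes, 2439 of 12886 were higher and 2530 lower without starved library 1. Without starved library 3 these counts were 2420 and 2483 of 12912.

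**Figure D1:**
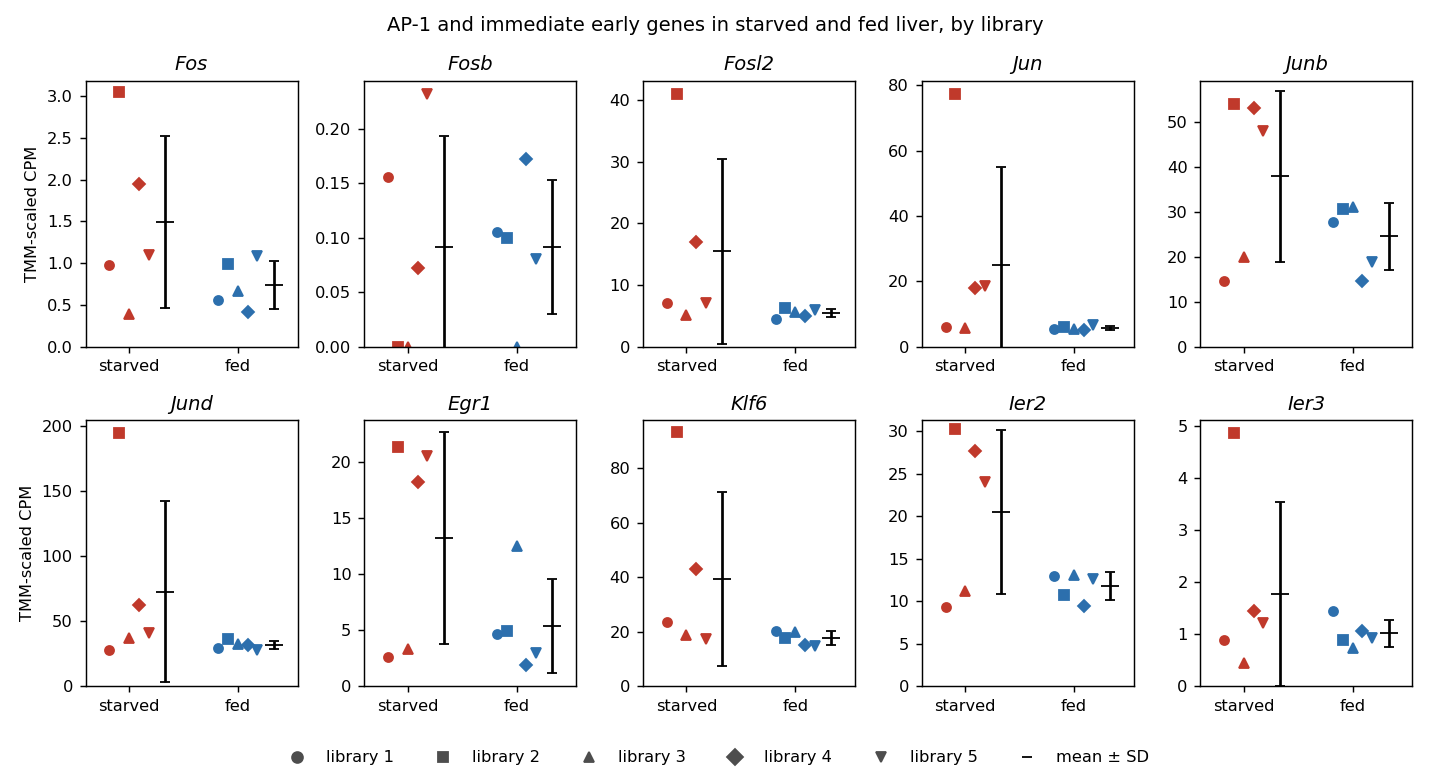
Level of each of the 10 genes in TMM-scaled CPM (vertical axis, from 0, with its own range for each gene) in the 5 starved and the 5 fed libraries, each symbol 1 library, with mean ± SD beside them (lower ends that would pass below 0 are not drawn). Starved library 2 is the highest starved library for 9 of the 10 genes, reaching 77.2 CPM for Jun and 195 CPM for Jund, while starved libraries 1 and 3 lie near the fed libraries.

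The Jun family holds the AP-1 subunits that can bind DNA as dimers of their own. Jun, the subunit most tied to proliferation and stress kinases, stood at 6.11, 77.2, 5.85, 18.0 and 18.5 CPM in starved libraries 1 to 5, and at 5.48, 6.00, 5.44, 5.03 and 6.72 CPM in fed libraries 1 to 5. Starved libraries 2, 4 and 5 lay above every fed library, while starved libraries 1 and 3 lay within the fed range. The log2 fold change was 2.13 ± 0.62 (SE; edgeR's quasi-likelihood test, adjusted p = 0.018). Without starved libraries 2 and 4 it was 0.81 ± 0.31 (adjusted p = 0.0509), and with limma-voom 1.41 (adjusted p = 0.0849), so neither kept the call. With the replicate number added to the edgeR fit as a block it was 1.44 and was not called either. Without starved library 2 alone it was 1.08 and was called (adjusted p = 0.0168, edgeR).

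Jund, the family member that resting cells express steadily and that restrains growth in several cell types, varied little among fed livers. It had 28.1, 195, 36.6, 62.5 and 40.9 CPM in the starved libraries and 29.3, 36.5, 32.1, 31.3 and 28.1 CPM in the fed libraries. Starved libraries 2 and 4 were the highest, libraries 5 and 3 were a little above the highest fed library, and starved library 1 was within the fed range. The log2 fold change of 1.21 ± 0.45 missed the threshold (edgeR's quasi-likelihood test, adjusted p = 0.0536), and DESeq2's Wald test called it (adjusted p = 0.0153). It was 0.43 without starved library 2 and 0.18 ± 0.12 without starved libraries 2 and 4.

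Junb, which can oppose Jun at some promoters, varied more among fed livers than Jun and Jund did. It had 14.6, 54.0, 20.1, 53.2 and 48.0 CPM in starved liver and 27.7, 30.6, 31.2, 14.6 and 18.8 CPM in fed liver. Starved libraries 2, 4 and 5 were alike and above every fed library, and starved library 1 was just below the lowest fed library. With this spread in both groups the log2 fold change was 0.63 ± 0.36 (edgeR's quasi-likelihood test, adjusted p = 0.185), and it was 0.17 ± 0.34 without starved libraries 2 and 4.

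Fos family proteins do not pair with each other and need a Jun partner to bind DNA. Fosl2, also called Fra-2, had 106 to 768 reads per library. Its level was 7.08, 41.0, 5.21, 16.9 and 7.07 CPM in starved and 4.57, 6.23, 5.66, 5.03 and 6.04 CPM in fed libraries. Starved libraries 2 and 4 were far above the rest, libraries 1 and 5 were slightly above the highest fed library, and library 3 was within the fed range. Its log2 fold change was 1.49 ± 0.50 (edgeR's quasi-likelihood test, adjusted p = 0.0332), and it was 0.25 ± 0.15 (adjusted p = 0.195) without starved libraries 2 and 4. The call was also lost without starved library 2 alone (0.74), without starved library 4 alone (1.48), without any single fed library (1.43 to 1.54) and with limma-voom (1.04). The replicate block lost it as well (1.06).

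Fos, the classic immediate early proto-oncogene, was low in every library, with 8 to 57 reads. It had 0.973, 3.05, 0.393, 1.95 and 1.10 CPM in starved and 0.562, 0.994, 0.662, 0.413 and 1.09 CPM in fed liver. Starved libraries 2 and 4 were again highest, starved library 5 was just above the highest fed library, and starved library 3 was below the lowest. The log2 fold change of 1.003 ± 0.46 did not pass (edgeR's quasi-likelihood test, adjusted p = 0.102). It was 0.62 without starved library 2 and 0.17 ± 0.38 without starved libraries 2 and 4. Fosb, its closest relative, had 0 to 5 reads per library. It was at 0 in starved libraries 2 and 3 and in fed library 3, where a count of 0 allows up to 0.16, 0.148 and 0.11 CPM (3 reads, counting error only), and its highest level was 0.232 CPM in starved and 0.172 CPM in fed liver. Fitted without the filter on low counts, it had an adjusted p of 0.988 (edgeR's quasi-likelihood test), so at this depth no difference was detectable.

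Of the zinc finger factors, Klf6, a Krüppel-like factor known from liver injury and from stellate cells, had 23.7, 93.4, 18.7, 42.9 and 17.4 CPM in starved and 20.4, 17.8, 19.9, 15.2 and 14.9 CPM in fed libraries. Starved libraries 2 and 4 and, by a little, library 1 were above the fed range, and libraries 3 and 5 were within it. Klf6 had a log2 fold change of 1.15 ± 0.41 (edgeR's quasi-likelihood test, adjusted p = 0.0441). It was 0.20 ± 0.14 (adjusted p = 0.261) without starved libraries 2 and 4. The call was also lost without starved library 2 (0.56) or 4 (1.15), without any single fed library (1.10 to 1.21), with library totals as scaling (0.95) and with limma-voom (0.85). The replicate block lost it as well (0.84).

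Egr1, an early growth response factor that binds GC-rich promoters, varied more among fed libraries than the other tested members. It had 2.61, 21.4, 3.29, 18.2 and 20.5 CPM in starved and 4.67, 4.90, 12.5, 1.89 and 2.94 CPM in fed liver. Starved libraries 2, 4 and 5 stood above all fed libraries and starved libraries 1 and 3 among them. The log2 fold change of 1.29 ± 0.64 was not called (edgeR's quasi-likelihood test, adjusted p = 0.128). Without fed library 3 it was 1.87 and was called (adjusted p = 0.0443), and without starved libraries 2 and 4 it was 0.68 ± 0.65.

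Ier2, a nuclear protein of the immediate early response, had 9.26, 30.3, 11.2, 27.7 and 23.99 CPM in starved and 12.99, 10.8, 13.1, 9.43 and 12.6 CPM in fed libraries. Here too starved libraries 2, 4 and 5 were above every fed library, and starved library 1 was below the lowest. The log2 fold change was 0.80 ± 0.30 (edgeR's quasi-likelihood test, adjusted p = 0.054), just short of the threshold, and DESeq2's Wald test called it (adjusted p = 0.0231). It was 0.33 ± 0.25 without starved libraries 2 and 4. Ier3, a membrane-anchored regulator of survival, had 0.895, 4.86, 0.443, 1.45 and 1.22 CPM in starved and 1.44, 0.895, 0.736, 1.07 and 0.926 CPM in fed libraries. Starved library 2 was far above the rest, and starved library 4 was barely above the highest fed library. Its log2 fold change of 0.78 ± 0.51 did not pass (edgeR's quasi-likelihood test, adjusted p = 0.244), and it was 0.0022 without starved library 2 and −0.25 ± 0.32 without starved libraries 2 and 4.

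**Figure D2:**
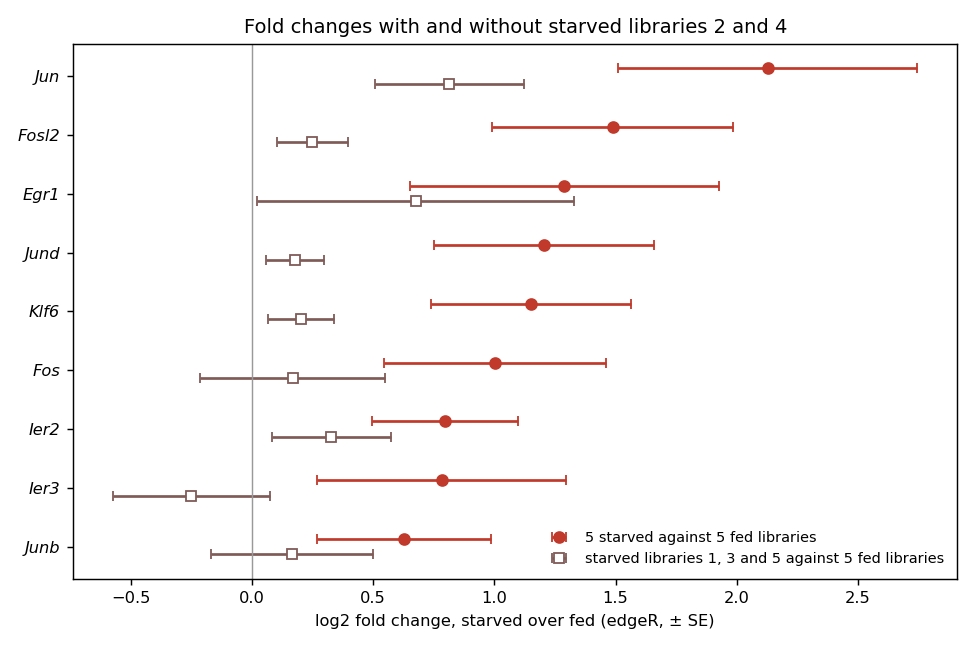
Log2 fold change of starved over fed liver (horizontal axis) with its SE for the 9 tested genes, from all 10 libraries (filled circles) and without starved libraries 2 and 4 (open squares). Jun is highest in both, at 2.13 and 0.81, and the open squares of Fosl2, Jund and Klf6 lie between 0.18 and 0.25. The libraries left out were the 2 highest starved libraries for 7 of the 9 genes, which lowers the estimates by itself.

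The top of the order of the starved libraries was much the same from member to member. The lowest place was split between starved libraries 1 (4 members), 3 (4) and 5 (1). Starved library 2 was the highest of the 5 starved libraries for 9 of 9 tested members, where it was highest for 32.8% of all tested genes. Starved libraries 2 and 4 were the 2 highest for 7 of 9 members and for 24.7% of all tested genes. In the remaining 2, Jun and Egr1, library 5 took the second place. Counted against the fed range, starved libraries 2 and 4 each exceeded every fed library for 9 of 9 members, library 5 for 7 (all but Klf6 and Ier3), library 1 for 2 (Fosl2 and Klf6) and library 3 for 1 (Jund). The same count was not taken over all tested genes, so these counts do not show whether the members stand out from other genes. The 2 groups overlapped for all 9 tested members, while 29.9% of all tested genes did not overlap. Without starved libraries 2 and 4, edgeR's quasi-likelihood test called 0 of 9 members, 1 at an unadjusted p under 0.05, against 40.9% of 13080 genes called. These shares are not on equal terms, because the libraries left out were the 2 highest for 7 of 9 members but for 24.7% of all tested genes. For the same reason the members' fold changes without these libraries show how far each estimate rests on them. They are not a separate check of the difference.

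Spread within the groups differed by member. The SD of log2 CPM among starved libraries was 0.79 (Ier2) to 1.52 (Egr1 and Jun), and among fed libraries it was 0.15 (Jund) to 1.01 (Egr1). Over all tested genes the median SD was 0.34 in starved and 0.17 in fed libraries. Jun, Jund and Fosl2 had SDs 9.52, 7.56 and 6.52 times as large among starved as among fed libraries, where the median ratio over all genes was 1.95. Fos, Junb and Egr1, with ratios of 1.94, 1.83 and 1.502, varied widely in fed liver already, at SDs of 0.56, 0.49 and 1.01.

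Other features of starved libraries 2 and 4 are given here beside these results. Neutrophil markers, of which 4 of 6 tested rose, summed to 24.9 and 32.2 CPM in starved libraries 2 and 4 and to 5.68 to 13.8 CPM in starved libraries 1, 3 and 5, while the fed libraries held 4.64 to 7.02 CPM. Markers of cholangiocytes summed to 16.1 and 15.0 CPM in these 2 libraries, to 35.8 to 40.8 CPM in the other starved libraries and to 46.5 to 57.4 CPM in fed libraries (1 of 5 tested fell). The 1 that fell was Spp1, which alone averaged 24.2 CPM in starved and 47.2 CPM in fed liver. These sums are thus mostly that of 1 gene. Of Kupffer cell and macrophage markers 10 of 11 fell, with sums of 223 to 429 CPM in starved and 503 to 805 CPM in fed libraries. Endothelial markers summed to 260 to 326 CPM in starved and 328 to 379 CPM in fed libraries (1 rose and 5 fell of 10), and stellate cell markers to 484 to 726 and 484 to 561 CPM (1 rose and 2 fell of 9). T and NK cell markers summed to 1.34 to 4.72 and 3.20 to 4.21 CPM (0 of 3 tested called by edgeR's quasi-likelihood test, 0 of them at an unadjusted p under 0.05), B cell markers to 0.641 to 3.59 and 2.98 to 4.58 CPM (1 of 4 fell), and red blood cell markers, 4 of whose 5 rows were at 0 throughout, to 8.35 to 25.1 and 26.8 to 44.9 CPM. No marker of the other lists was at 0 in all libraries. The share of reads that aligned to more than 1 place was 38.6% and 40.7% in starved libraries 2 and 4, 43.4% to 48.4% in the other starved libraries and 46.4% to 48.1% in fed libraries. The part of these features in the members' values was not tested. In bulk liver, fewer cells of a type and less RNA per cell cannot be told apart.

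Levels of different genes were compared per kilobase of exon. In fed liver the order was Jund (18.9 ± 1.95 CPM per kb, SD, n = 5), Junb (10.7 ± 3.24), Ier2 (7.74 ± 1.06), Klf6 (4.01 ± 0.585), Jun (1.798 ± 0.204), Egr1 (1.20 ± 0.934), Ier3 (0.895 ± 0.235), Fosl2 (0.569 ± 0.0721), Fos (0.316 ± 0.122) and Fosb (0.0147 ± 0.0099). Neighbours in this order overlapped between Junb and Ier2, Jun and Egr1, and Egr1 and Ier3, and their ranges were apart elsewhere. The gap of Jund over Junb depends on the exon length used. Junb has 2301 bp of merged exons but 1809 bp in its longest transcript, by which the ranges of Jund and Junb would overlap. In starved liver Jund (43.5 ± 41.7), Junb (16.5 ± 8.29) and Ier2 (13.5 ± 6.34) again led by mean, and all neighbours overlapped except Fos and Fosb. Summed over each family, Jun transcripts were at 25.1 to 165 CPM per kb in starved and 26.7 to 37.1 in fed liver, and Fos transcripts at 0.706 to 5.54 and 0.722 to 1.10, so that Jun family transcripts outnumbered those of the Fos family by 21.5 to 46.1 times in starved and 24.7 to 43.0 times in fed libraries.

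The make-up of each family was compared as shares of its sum, which do not depend on library scaling. Jun made up 7.63%, 14.7%, 5.64%, 8.52% and 11.3% of the Jun family in starved libraries and 5.49%, 5.07%, 4.95%, 5.90% and 7.77% in fed libraries. The mean share was 9.56% ± 3.53 in starved and 5.84% ± 1.14 in fed liver (SD, n = 5 each), a difference of 3.73 points (exact two-sided permutation p = 0.0397, 0.159 adjusted over the 4 shares tested), which did not hold after adjustment. By merged exon length Jund held the largest share in every library, with 62.0% ± 9.57 in starved and 60.7% ± 5.99 in fed liver (exact permutation p = 0.786, adjusted p = 0.786), and Junb held 28.4% ± 10.1 and 33.5% ± 6.52 (exact permutation p = 0.381, adjusted p = 0.508). Junb has 2301 bp of merged exons but 1809 bp in its longest transcript, while Jund has 1668 bp by either measure. By the longest transcript Junb would take a larger share, and Jund would not lead in starved library 5. Fosl2 held 68.4% ± 7.93 of the Fos family in starved and 64.1% ± 6.08 in fed liver (exact permutation p = 0.357, adjusted p = 0.508). Without starved library 2 the differences for Jun, Junb and Fosl2 were 2.44, −1.55 and 2.28 points, and over all single libraries left out they ranged from 2.44 to 4.71, from −8.18 to −1.55 and from 2.28 to 6.65 points, with none passing after adjustment.

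**Figure D3:**
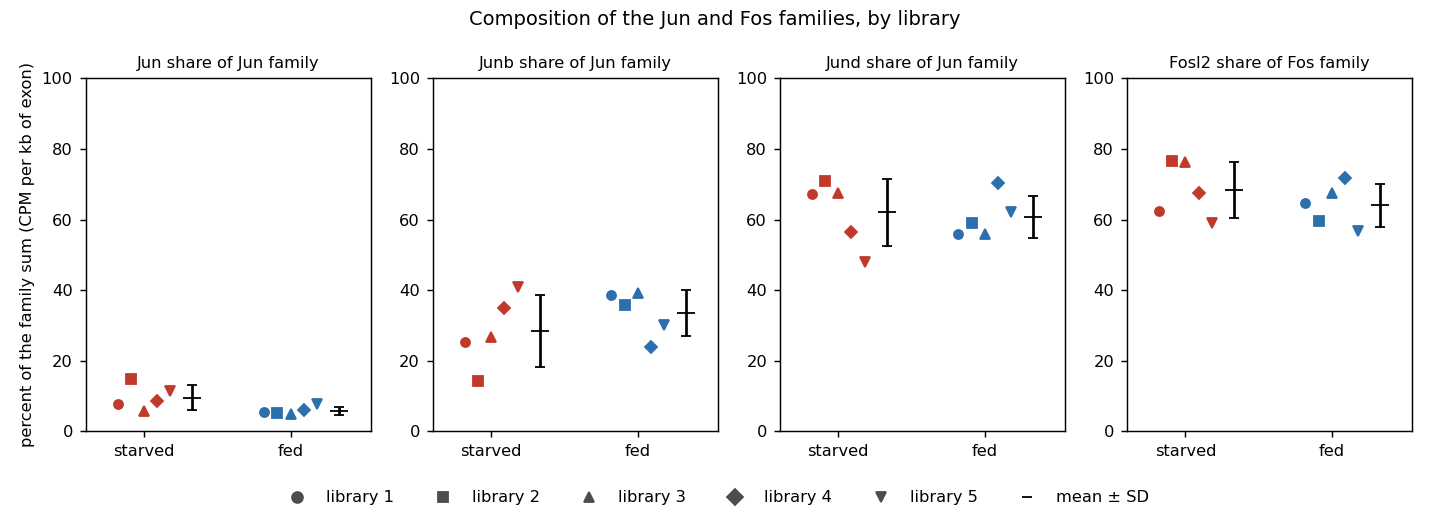
Share of Jun, Junb and Jund in the Jun family sum and of Fosl2 in the Fos family sum (vertical axis, percent of CPM per kb of exon) in each starved and fed library, with mean ± SD. Jun takes 5.64% to 14.7% in starved and 4.95% to 7.77% in fed libraries, and Jund and Fosl2 are the larger parts of their families.

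Genes with the most similar pattern were sought for the members with the highest and the lowest fold change, by the root mean square difference of centred log2 CPM over 10 libraries among 8687 genes. Closest to Jun, whose own SD was 1.27, were Irf2bp2, a transcriptional corepressor (difference 0.28), Sesn2, a stress-induced inhibitor of mTORC1 (0.30), and Rhbdf2, an inactive rhomboid protease (0.35). Closest to Junb (SD 0.72) were Socs3, the feedback inhibitor of cytokine receptors (0.26), Zfp358, a zinc finger protein (0.36), and Ablim3, an actin-binding LIM protein (0.37). Socs3 averaged 7.53 ± 3.70 CPM in starved and 6.01 ± 1.86 CPM in fed liver and did not pass (log2 fold change 0.32, edgeR's quasi-likelihood test, adjusted p = 0.454), while Zfp358 (0.57, adjusted p = 0.0363) and Ablim3 (0.97, adjusted p = 0.0345) rose. The 3 genes closest to Jun rose as well, with log2 fold changes of 1.73, 2.27 and 1.74. Because all these genes were picked for their likeness over the same starved and fed libraries, their fold changes are not a separate result.

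Among 33 tested genes of a list of 40 other immediate early genes, 12 rose and 1 fell, with a median log2 fold change of 0.98. Over all tested genes 18.6% rose and 20% fell. Gadd45b, a stress sensor that acts on MAP kinase cascades, rose to 40.6 ± 28.5 CPM in starved liver, against 2.03 ± 0.644 CPM in fed liver (log2 fold change 4.32 ± 0.45). Gadd45g, its relative, averaged 85.8 ± 94.2 CPM in starved and 5.22 ± 3.22 CPM in fed liver (4.04 ± 0.75). Myc, a growth-promoting transcription factor, averaged 16.9 ± 20.0 and 1.62 ± 0.564 CPM (3.38 ± 0.70). Cyr61, a secreted matricellular protein, was the member that fell, to 3.36 ± 0.695 CPM in starved liver, against 7.83 ± 1.60 CPM in fed liver (−1.22 ± 0.18). The groups did not overlap for 8 of the 33 tested genes of the list, among them these 4, which were named for the size of their change, and for 29.9% of all tested genes.

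Without starved libraries 2 and 4 this list had 9 genes higher and 6 lower of 34 tested, with a median of 0.06. Over all genes that fit gave 2647 higher and 2705 lower of 13080, and the list's counts lie near these shares. Without starved library 2 alone 4 genes of the list were lower, against 2847 of 12942 over all genes. Of the 12 that rose, 9 kept their call without starved libraries 2 and 4, among them Gadd45b (3.55), Gadd45g (2.60) and Myc (1.64). The additional genes that were lower in that fit, named after their values were seen, were Klf10, Dusp6, Sik1, Tiparp and Plk2, of which Tiparp had a log2 fold change of −0.69 there and 1.56 over all libraries, where it was not called. Sik1, a salt-inducible kinase, had −0.93 there and 0.80 over all libraries, also not called.

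Of 10 tested AP-1 partners and related leucine zipper factors (13 in the list), 2 rose and 1 fell, with a median log2 fold change of −0.03. The shares over all tested genes were 18.6% and 20%. Atf3, a stress-induced factor that pairs with Jun, averaged 15.9 ± 29.4 CPM in starved and 1.84 ± 0.379 CPM in fed liver (3.11 ± 1.01), and without starved libraries 2 and 4 its log2 fold change was 0.52 and was not called. Its call was also lost without starved library 2 alone (0.61), without any single fed library (3.03 to 3.23) and with limma-voom (1.38). The replicate block lost it as well (1.38), and DESeq2's Wald test gave Atf3 no adjusted p. Mafk, a small Maf protein, averaged 35.1 ± 22.2 and 16.4 ± 1.93 CPM (1.09 ± 0.33, and 0.49 without these libraries). Maf fell slightly, to 23.8 ± 1.07 CPM in starved liver, against 28.8 ± 1.77 CPM in fed liver (−0.27 ± 0.09). The call of Mafk was lost without fed library 1 or 5 (1.06 and 1.05) and with limma-voom (0.88), and that of Maf without fed library 1, 3 or 5 or starved library 3 or 4 (−0.28 to −0.23) and without the filter on low counts (−0.27). Maf was not called with the replicate block either (−0.27).

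Of 34 genes of the MAP kinase cascades and the factors they act on, all tested, 7 rose and 7 fell, with a median log2 fold change of 0.14. These counts lie near the shares over all tested genes, of which 18.6% rose and 20% fell. Mapkapk2, the kinase below p38 that stabilises AU-rich messages, rose to 221 ± 162 CPM in starved liver, against 59.6 ± 2.91 CPM in fed liver (1.89 ± 0.37), and stayed called without starved libraries 2 and 4 (1.11). Map2k6, a kinase above p38 (1.57 ± 0.54, and 0.31 without these libraries, then not called), and Braf, a kinase above ERK (0.93 ± 0.22, and 0.50 without them, still called), also rose. Rps6ka1, a ribosomal S6 kinase that acts on Fos, fell to 3.48 ± 1.06 CPM in starved liver, against 11.1 ± 2.11 CPM in fed liver (−1.66 ± 0.22). The hepatocyte growth factor receptor Met (−0.64 ± 0.20, and −0.36 without starved libraries 2 and 4, still called) and Mapk3, which encodes ERK1 (−0.63 ± 0.13), fell as well. The call of Map2k6 was also lost without starved library 2 (0.64) or 4 (1.66), without any single fed library (1.45 to 1.65), with library totals (1.34) and with limma-voom (1.07), and that of Met without fed library 2 (−0.56) or 5 (−0.59) or starved library 4 (−0.55). With the replicate block neither Map2k6 (1.02) nor Met (−0.67) was called.

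Among 19 tested genes of a list of 20 known as AP-1 targets, 4 rose and 8 fell, with a median log2 fold change of −0.24. The shares over all tested genes were 18.6% and 20%. Ccnd1, the cyclin that drives entry into the cell cycle, fell to 26.8 ± 15.5 CPM in starved liver, against 139 ± 30.0 CPM in fed liver (−2.37 ± 0.40). Spp1, which encodes osteopontin and is also a cholangiocyte marker, averaged 24.2 ± 11.1 CPM in starved and 47.2 ± 5.06 CPM in fed liver (−0.96 ± 0.29, and −0.53 without starved libraries 2 and 4, still called), and Cd44, a hyaluronan receptor of leukocytes and bile ducts, 7.19 ± 2.17 and 12.3 ± 3.09 CPM (−0.78 ± 0.23, and −0.48 without starved libraries 2 and 4, then not called). The cholangiocyte marker sum given above is mostly Spp1 itself, so it is no separate measure beside the fall of Spp1. These falls stand beside the lower sums of macrophage markers given above, whose part was not tested. Plaur, the urokinase receptor (1.39 ± 0.39), Hmox1, the inducible haem oxygenase (1.20 ± 0.25), and Plat, the tissue plasminogen activator (0.72 ± 0.24), rose, the first and the last at 1.003 and 1.32 CPM in starved liver. The call of Plat was lost with library totals (0.58), without starved library 1 (0.61), starved library 4 (0.70) or starved libraries 2 and 4 (0.75), and without fed library 1, 3, 4 or 5 (0.66 to 0.71), and that of Cd44 also without fed library 4 (−0.64) or starved library 4 (−0.66). Plat was not called with the replicate block either (0.74).

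**Figure D4:**
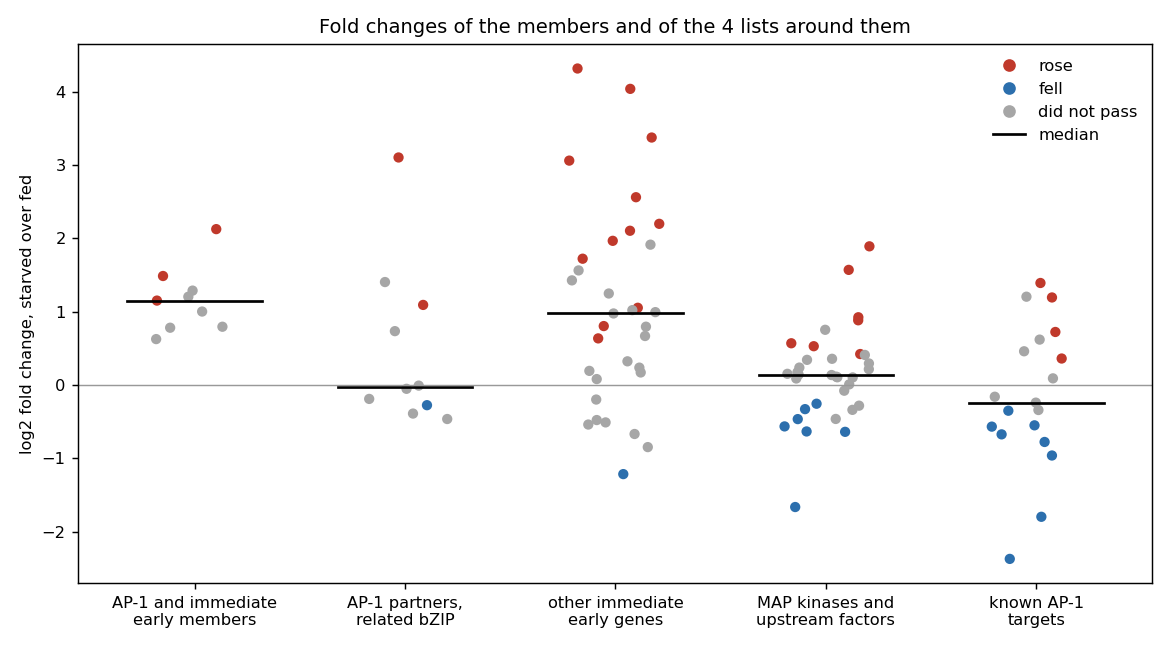
Log2 fold change of starved over fed liver (vertical axis) for the 9 tested AP-1 and immediate early members and for the tested genes of the 4 lists, each point 1 gene, coloured by call, with the median of each set as a line. The other immediate early genes have a median of 0.98, the AP-1 partners of −0.03, the MAP kinase list of 0.14 and the known AP-1 targets of −0.24.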

How the data were processed

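RNA-seq was done on 10 mouse livers, 5 starved and 5 fed. In each deposited file, 1 per library, column 2 gives raw counts of reads for every gene symbol, followed by tallies of unassigned reads. A TruSeq kit that marks strand was used on total RNA, per the labels' protocols. Build mm10 and edgeR 3.6.4, HTSeq, Bowtie2 2.0.0, TopHat2 2.0.0 and CASAVA 1.8.2 appear in the submitters' processing notes. Which annotation, HTSeq version and strand setting were used is not given here. The tallies were kept apart from gene counts: reads that aligned to more than 1 place made up 38.6% to 48.4% and reads in no gene 16.0% to 24.7% of all reads tallied.

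Counts were analysed in R 4.3.3. Genes were filtered with filterByExpr (12796 of 23420 kept), scaled by TMM and tested with edgeR 4.0.16's quasi-likelihood test without covariates, with p-values adjusted by Benjamini-Hochberg over every gene tested and a threshold of 0.05. The SE of an edgeR log2 fold change was derived as its absolute value divided by the square root of the test's F statistic. The fit was tested on simulated counts. SDs of log2 CPM used a prior of 0.5 reads. CPM per kb used the merged exons of GENCODE M21, which need not be the annotation counted on. Family shares were compared by exact permutation tests (scipy 1.17.1). Alternatives were DESeq2 size factors, library totals, no low-count filter, DESeq2 1.42.0, limma-voom (limma 3.58.1), a replicate block, leaving out each library, and leaving out starved libraries 2 and 4. Family shares and their alternatives were chosen after seeing the data. The members and lists were chosen with earlier results of these data known. Named from each list were the 3 genes or fewer with the largest rise and with the largest fall, among called genes that reached 1 CPM in the higher group. Most similar genes were sought among non-members with at least 5 CPM, leaving out numbered gene models. Replicates are separate mice as far as the labels say, no pair of one group matched within sampling noise (chi-square per degree of freedom 11.2 or more), and intervals and floors cover counting error only.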

Additional observations from a re-analysis of the deposited data

Results flagged for a closer look

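Of 28 groups of 5 libraries checked for a single library far from the rest (10 genes and 4 shares, starved and fed), 4 were marked because the gap to the nearest library was more than 0.71 of the whole range. For independent, normally distributed values this limit marks about 1 in 20 groups. CPM and shares need not be so distributed and the groups come from the same libraries, so that rate is only a rough guide here. In starved liver, starved library 2 stood far above the others for Jun (77.2 CPM), Jund (195 CPM) and Ier3 (4.86 CPM), with gaps of 0.823, 0.794 and 0.773 of the range. In fed liver, Egr1 was at 12.5 CPM in fed library 3, a gap of 0.717 of the range. The report gives these genes with all their values, and for the starved ones without starved libraries 2 and 4.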

How the results depend on the processing

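The direction of each tested member held under all 17 alternatives, except that Ier3 turned to −0.25 without starved libraries 2 and 4. The number of members called higher (3) was 5 with DESeq2's Wald test, 0 with limma-voom (2 at an unadjusted p under 0.05), 0 with a replicate block (4 unadjusted), 0 without starved libraries 2 and 4 (1 unadjusted), and 1 to 6 when single libraries were left out; 0 were lower throughout. The cause was not tested. Over all genes, library totals alone shifted the median log2 fold change by −0.157 and gave 1490 higher and 3490 lower, against 2379 and 2555. Counts higher and lower over all genes were 2846 and 2678 with DESeq2's test, 2249 and 2732 with limma-voom, and 2029 and 2381 with the block. In the AP-1 partner list (2 higher, 1 lower), the count higher was 1 with DESeq2's test, 0 with limma-voom, 1 with the block and 1 without starved libraries 2 and 4, and 0 to 3 with single libraries left out. Its count lower was 2 with library totals, 0 with the block and 0 to 2 with single libraries left out. In the other immediate early genes the count lower (1) was 4 with library totals, 2 with DESeq2's test, limma-voom or the block, 6 without starved libraries 2 and 4 and 1 to 4 with single libraries left out. In the MAP kinase list (7 and 7), the count higher was 3 with library totals and 4 with the block, and with single libraries left out 4 to 8 higher and 4 to 7 lower. In the AP-1 target list (4 and 8), 2 were higher with library totals, and 5 to 8 were lower with single libraries left out. The share of Jund in its family, 1.36 points higher in starved liver, was −0.892 without starved library 2 and −0.0111 without starved library 3, and ranged over −0.892 to 4.89 points with single libraries left out.

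Same-numbered starved and fed libraries deviated together little (r across genes of −0.0375 to 0.187 over 5 numbers, above 0.1 for 1 of them). Of the starved libraries, 2 of 5 correlated best with their own number. The labels do not say what a shared number marks, so whether the replicate block pairs related libraries is not settled. Fos, Fosb and Ier3 had 0 to 91 reads per library, which limits what can be detected for them.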
